A study of Homo sapiens with 40 samples.

Results

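The 42 genes described here are genes that interferons switch on, together with the genes that process antigens for display on major histocompatibility complex (MHC) class I. They were taken as a given list of genes. Chromatin around them was followed through the intervals of open chromatin, called peaks, of 40 ATAC-seq libraries. A consensus region was a merged interval with a peak in at least 2 of the 40 libraries, and a library counted as open wherever one of its own peaks fell. Regions whose midpoint lay in the body of a member gene or within 20 kb of either end were taken as its regions. Of 71600 consensus regions, 95 met this rule, and they belonged to 33 of the 42 genes. No region lay in the windows of the other 9 genes, which were IFI27, IFI44, IFI44L, IFITM1, IFITM2, IFITM3, XAF1, SAMD9 and SAMD9L. For these 9 genes, the nearest region was 25.9 to 105.1 kb from the gene start. Of the 95 regions, 20 lay in the window of more than 1 member.

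Interferon receptors signal through the kinases JAK1, JAK2 and TYK2 to transcription factors, among them STAT2 and IRF9, that bind the interferon-stimulated response element (ISRE). The genes behind these elements encode sensors of viral RNA, proteins that restrict viruses, the ubiquitin-like protein ISG15 with its conjugation machinery, and the peptidases and transporters that supply peptides to MHC class I. Many of them are also expressed at a low level without infection, and in tumour cells they bear on how visible the cells are to T cells.

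BT474 is an established HER2-amplified breast ductal carcinoma line sensitive to trastuzumab, an antibody against HER2, and BT474R is a resistant clone grown out of it under the antibody, so each line was represented by 1 cell population. Both lines were serum-starved and either collected untreated at 0 h (baseline) or given epidermal growth factor (EGF), heregulin (HRG) or water (control) and collected after 1, 12 and 24 h. EGF binds EGFR, and HRG binds HER3 and HER4. Each of the 20 groups held 2 libraries, and the labels name no interferon treatment in any group. Nothing in the labels says that the 2 libraries came from separate cultures, so p-values measure the spread among these libraries, and the 10 conditions of a line are not replicate cultures of it. A bulk library cannot tell a region open in fewer cells from one less open in each cell.

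The lists hold peaks and no read counts. Sequencing depth was therefore unknown, and the lack of a peak says that the caller reported none, which is not evidence of closed chromatin. The level of a peak is given as its rank percentile among the peaks of its own library, from the authors' peak score, with 100 at the top and 0 where no peak was listed. BT474 libraries listed 47571 to 56846 peaks (median 51357) and had a peak at 65 to 76 of the 95 regions (median 71). BT474R libraries listed 32479 to 56494 peaks (median 46641) and had a peak at 43 to 75 (median 60). The library with the shortest list, control-BT474R 12 h replicate 1, also had the fewest member regions open. The number of regions open therefore moved with the length of the list, and its part in the results was not tested apart from the alternatives with equal lists given beside them. Promoters of the 7 luminal epithelial marker genes checked, among them KRT8, EPCAM and ERBB2, were open in all 40 libraries. None of the 7 markers of leukocytes, endothelium and fibroblasts had a promoter region in any library.

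**Figure D1:**
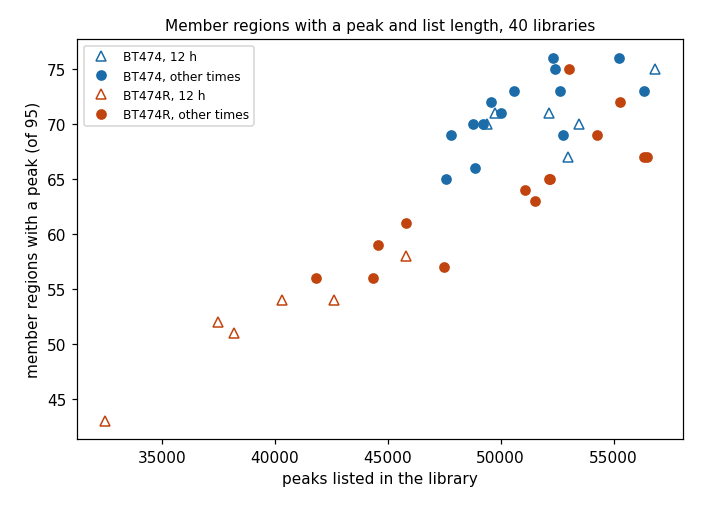
Number of member regions with a peak (vertical axis, of 95) against the number of peaks listed (horizontal axis) for each of the 40 libraries, with the 12 h libraries as open triangles. The BT474R libraries spread from 43 to 75 regions and the BT474 libraries from 65 to 76, and the library with the shortest list, 32479 peaks, has the fewest regions.

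The promoters carry the element that names this group of genes. The ISRE core was searched as TTTC, any 2 bases and TTTC, and as its reverse complement GAAA, any 2 bases and GAAA, within 100 bp of the summit of each region. It was found in 12 of the 95 member regions, 12.6%, against 1.65% of all 71600 regions. Among the 23 promoter regions of members it was found in 11, or 47.8%, against 1.28% of the promoter regions of all protein-coding genes. Those 11 belonged to ISG15, IFI6, EIF2AK2, IFIH1, PARP9 with DTX3L, TAP2, TRIM21, OAS3, B2M, ISG20 and NLRC5, and the 12th match lay in the TRIM5 promoter 4.7 kb upstream of TRIM22. A match is a run of letters and not a shown site of binding. The following 8 windows are given because they come from promoters whose levels are followed below. They are written 5′ to 3′ on the strand of the gene (for the promoter shared by PARP9 and DTX3L, that of PARP9), taken from the GRCh38 genome, with the match in capitals. The ISG15 window covers chr1:1013335-1013454 on the plus strand and ends 43 bases before the transcript start.
ISG15: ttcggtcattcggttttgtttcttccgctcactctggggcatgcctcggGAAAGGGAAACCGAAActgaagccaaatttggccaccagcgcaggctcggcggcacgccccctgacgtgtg
OAS3 (chr12:112938452-112938481, plus strand): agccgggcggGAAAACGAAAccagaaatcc
EIF2AK2 (chr2:37156967-37156996, minus strand): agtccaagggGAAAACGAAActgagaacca
IFIH1 (chr2:162318685-162318760, minus strand): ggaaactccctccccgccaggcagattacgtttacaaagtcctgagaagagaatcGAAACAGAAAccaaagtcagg
TRIM21 (chr11:4393666-4393695, minus strand): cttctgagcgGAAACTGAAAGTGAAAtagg
PARP9 and DTX3L (chr3:122564322-122564351, minus strand): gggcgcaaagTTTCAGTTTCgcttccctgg
ISG20 (chr15:88638937-88638966, plus strand): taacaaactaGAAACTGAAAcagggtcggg
NLRC5 (chr16:56989543-56989572, plus strand): cggcttctacTTTCAGTTTCgtgcagagcg
In ISG15 and in TRIM21 the capitals hold 2 overlapping matches, of which 1 in TRIM21 lay within 100 bp of the summit. The gamma-activated site, searched as TTCNNNGAA, was found in 2 of the 95 regions, the HERC5 and IFI35 promoters, against 5.37% of all regions.

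At the promoters, the question was which of these genes were open in each line and whether BT474R differed from BT474. All 20 libraries of a line were pooled for this, ligand-treated ones included. A promoter was the region overlapping 1 kb on either side of the canonical transcript start in GENCODE release 44. Of the 42 genes, 25 had such a region, in 23 regions because PARP9 shares one with DTX3L and PSMB9 one with TAP1. Besides the 9 genes without any region, IFIT1, IFIT3, MX1, MX2, OAS2, RSAD2, TRIM22 and BST2 had none at their canonical start. In BT474, 18 of the 23 promoters were open in all 20 libraries. In BT474R, 12 of the 23 were open in all 20 libraries, and 12 (52.2%) were open in all 40, against 76.4% of the promoter regions of all protein-coding genes. Fewer BT474R than BT474 libraries were open at 10 promoters, more at 1 and equally many at 12. By a two-sided Fisher's exact test on 20 against 20 libraries with Benjamini-Hochberg adjustment over all 71600 regions, 7 promoters were called lower in BT474R, which is 30.4% of the 23, against 8.75% of all protein-coding promoter regions. None was called higher, against 1.13% of all such regions, at the adjusted and at the unadjusted threshold of 0.05. The 7 were ISG15, HERC5, OAS3, CD274, IFI35, OASL and IFIT5. The USP18, IFIT and OAS genes have close paralogs, and how reads that map to several places were counted is not given in the sources used here, so their values are uncertain to that extent.

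**Figure D2:**
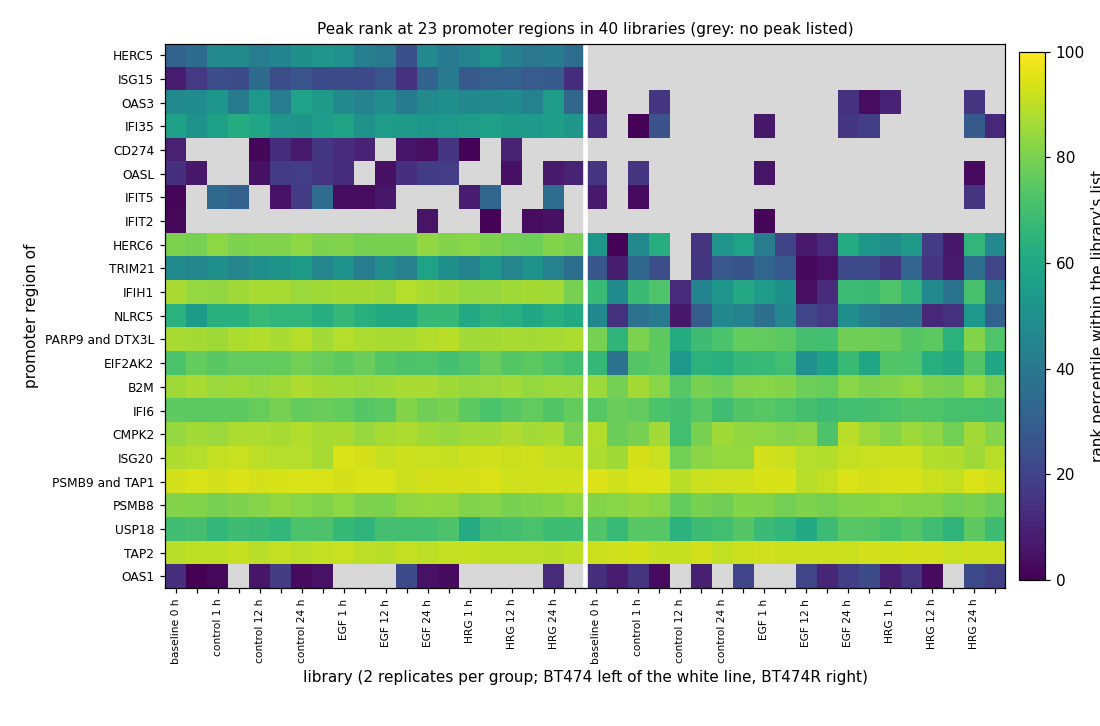
Rank percentile within the library's list (colour, 0 to 100, grey where no peak was listed) at the 23 member promoter regions (rows) in the 40 libraries (columns, 2 per group, BT474 left of the white line and BT474R right). ISG15 and HERC5 have a peak in all 20 BT474 libraries and in 0 of 20 BT474R libraries, while the antigen processing promoters at the bottom are coloured throughout.

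The promoters of ISG15 and of HERC5, the main ligase that attaches ISG15 to proteins, had a peak in every BT474 library and in no BT474R library. At ISG15 (chr1:1013168-1013729) the percentile in BT474 was 8.02 at the lowest, 25.28 at the median and 41.37 at the highest, and the adjusted p of the Fisher's exact test was 4.18e-10. The 2 BT474 baseline libraries stood at 8.0 and 16.6, and the 6 controls spanned 22.3 to 35.4. At HERC5 (chr4:88456723-88457206) the BT474 libraries spanned 24.55 to 52.03 with a median of 42.90, with the same adjusted p of 4.18e-10. HERC6, a relative of HERC5, kept its promoter peak in 19 of 20 BT474R libraries, at a median percentile of 47.6 against 80.7 in BT474, and was not called by presence. It was called lower, with a difference of -40 percentage points, at a score of at least 400, with equal top peaks and with 50% coverage (adjusted p 0.0109 to 0.0127). The promoter of USP18, the protease that takes ISG15 off again, was open in all 40 libraries at medians of 69.3 and 69.6. The ISG15 call was lost when peaks with a score under 400 were dropped, with a difference of -10 percentage points in the share of libraries open. With lists cut to one length, no consensus region was left at the ISG15 promoter, so the call could not be tested there. The HERC5 call was kept under each alternative tried.

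Among the sensors of double-stranded RNA and the OAS family, the OAS3 promoter (chr12:112938191-112938988) was the one that differed most by presence. It was open in all 20 BT474 libraries at percentiles of 33.09 to 57.46 (median 47.80) and in 6 of 20 BT474R libraries, where the peaks lay between 2.82 and 15.78 (adjusted p 2.6e-05). The BT474R peaks were thus all below the lowest BT474 value. The 6 were baseline replicate 1, control 1 h replicate 2, HRG 1 h replicate 1, HRG 24 h replicate 1 and both EGF 24 h libraries. OASL, a catalytically inactive relative, was open in 14 and 4 libraries (adjusted p 0.014), with medians of 7.0 and 0. OAS1, which makes the messenger that activates RNase L, went the other way by count, with 11 BT474 and 15 BT474R libraries open, and was not called (adjusted p 0.674). With baseline and control libraries alone, 8 against 8, the OAS1 difference changed sign to -12.5 percentage points. The promoters of IFIH1 (MDA5, a sensor of long double-stranded RNA) and EIF2AK2 (PKR, a kinase that halts translation) were open in all 40 libraries.

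CD274 encodes the checkpoint ligand PD-L1. Its promoter (chr9:5450335-5450686) was open in 12 BT474 libraries at percentiles of 0.88 to 15.69 and in no BT474R library (adjusted p 0.000274). The 12 were 1 of 2 baseline, 4 of 6 control, 5 of 6 EGF and 2 of 6 HRG libraries. IFI35 (chr17:43006607-43007277), whose protein belongs to the less settled interferon-inducible ones, was open in all 20 BT474 libraries at 50.97 to 61.76 (median 54.51) and in 8 BT474R libraries at 1.08 to 28.46 (adjusted p 0.000274). The narrow BT474 range and the wide BT474R range did not overlap. IFIT5, of the family that binds the 5′ end of viral RNA, was open in 12 and 3 libraries (adjusted p 0.0291), and IFIT2 in 5 and 1 (adjusted p 0.434). With baseline and control libraries alone, the calls at CD274, IFI35, OASL and IFIT5 were lost, and without the 12 h libraries, whose lists were the shortest in BT474R, those at IFI35, OASL and IFIT5 were lost. The IFIT5 call was also lost at a score of at least 400, with equal top peaks and with 50% coverage, where the differences were -15, -10 and -25 percentage points, and the OASL call with 50% coverage (-35). At a score of at least 400 and with equal top peaks, no consensus region was left at the CD274 and OASL promoters. Their calls could not be tested there.

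The antigen processing promoters did not share this pattern. PSMB8 and PSMB9 (immunoproteasome subunits), TAP1 and TAP2 (the peptide transporter), B2M (the light chain of class I) and NLRC5 (the transactivator of class I genes) were open in all 40 libraries. The BT474 and BT474R medians were 81.3 and 81.1 at PSMB8, 93.7 and 93.3 at the promoter of PSMB9 and TAP1, 90.4 and 92.3 at TAP2, and 85.7 and 81.0 at B2M. NLRC5 differed most, with 63.1 in BT474 and 37.8 in BT474R.

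Because a promoter open everywhere cannot change by presence, peak scores were also ranked within each library over one common set of regions, and the ranks were compared with limma (46799 regions with a peak in at least 20 of the 40 libraries). On this scale, of 0 to 100 with regions lacking a peak tied at the bottom, 14 of the 19 member promoters tested were lower and 3 higher in BT474R at an adjusted p below 0.05, while 54.6% of all protein-coding promoter regions tested were lower and 28.4% higher. Of the 14, ISG15, HERC5, OAS3 and IFI35 had a peak in under 10 BT474R libraries, so they passed the filter through BT474, where they are high, and had to differ. Of the 15 promoters with a peak in at least 10 libraries of each line, a filter added after the data were seen, 10 were lower and 3 higher (66.7% and 20%), against 52.9% and 29.5% of all promoter regions so filtered. Their median difference, BT474R minus BT474, was -2.22 percentile points, against -1.55 over all such promoters. The difference was -29.24 ± 1.46 at IFIH1 (SE; adjusted p 2.12e-15), -37.56 ± 1.96 at HERC6 (adjusted p 4.98e-15) and -22.06 ± 1.35 at NLRC5 (adjusted p 1.34e-13). At TRIM21, a ubiquitin ligase that binds antibody-coated virus, it was -17.67 ± 1.42, and at the promoter of PARP9 and DTX3L, which encode an ADP-ribosylating ligase complex, -11.87 ± 0.75. The TRIM21 promoter was also called lower by presence at a score of at least 400 (-95 percentage points). The 3 that were higher were TAP2 by 2.83 ± 0.25, USP18 by 4.19 ± 0.64 and OAS1 by 11.43 ± 1.58. PSMB8, with a difference of 0.60 ± 0.40, and the promoter of PSMB9 and TAP1, with 0.07 ± 0.25, did not pass. Of the 5 antigen processing promoter regions, 2 were thus lower in BT474R (NLRC5 and B2M), 1 was higher and 2 were not called.

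Over all 95 regions, presence was called lower in BT474R at 22 (23.2%, against 18.4% of all regions) and higher at 6 (6.32%, against 11.0%). With every list shortened to the same number of top peaks, the calls numbered 12 lower and 3 higher among the 60 regions left (20% and 5.0%, against 14.9% and 14% of all regions left). With baseline and control libraries alone they numbered 9 lower and 4 higher (9.47% and 4.21%, against 8.96% and 5.31%). A peak in all 40 libraries was found at 40 member regions (42.1%), against 35.1% of all regions. Member regions open in BT474 alone numbered 13 (13.7%) and in BT474R alone 12 (12.6%), against 13.9% and 13.98% of all regions.

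**Figure D3:**
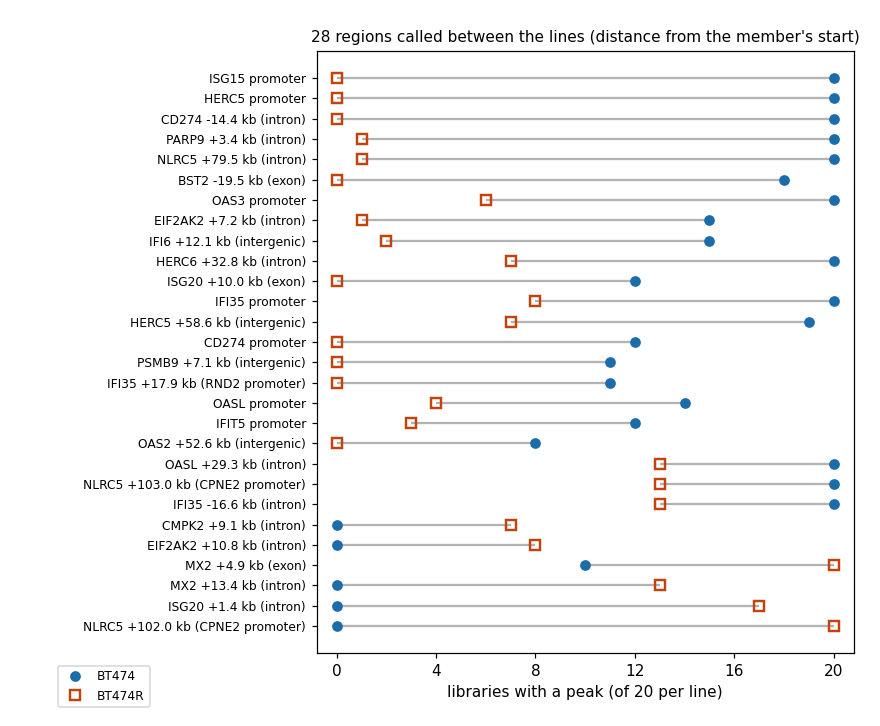
Number of libraries with a peak (horizontal axis, of 20 per line) at the 28 member regions called between the lines (rows, with the distance from the member's start), BT474 as filled circles and BT474R as open squares. The 6 regions gained in BT474R stand at the bottom, led by the region 102.0 kb from the NLRC5 start at 0 and 20 libraries, and the ISG15, HERC5 and CD274 -14.4 kb regions stand at 20 and 0.

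Away from the promoters, the region 14.4 kb upstream of CD274 (chr9:5435865-5436360, in an intron of PLGRKT) had a peak in all 20 BT474 libraries, at 26.93 to 56.56 (median 48.65), and in no BT474R library (adjusted p 4.18e-10). PARP9 lost an intronic region 3.4 kb into the gene (20 and 1 libraries, adjusted p 5.78e-09), and NLRC5 one 79.5 kb from its start (20 and 1, adjusted p 5.78e-09), a call lost at a score of at least 400 (-10 percentage points, adjusted p 0.859). The region 19.5 kb upstream of BST2, the gene of the virus-tethering protein tetherin, lay in an exon of MVB12A and was open in 18 and 0 libraries (adjusted p 5.08e-08). HERC6 kept an intronic region 32.8 kb from its start in 7 of 20 BT474R libraries against 20 of 20 (adjusted p 8.86e-05). All 7 were libraries of 0 and 1 h. With baseline and control libraries alone the HERC6 call was lost (Fisher's exact test, adjusted p 0.136). With equal top peaks, no consensus region was left at the PARP9, NLRC5 and BST2 regions, so they could not be tested. Nor could the PARP9 and BST2 regions at a score of at least 400.

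Among the 6 regions called higher, the region 102.0 kb from the NLRC5 start (chr16:57091247-57091898) had a peak in no BT474 library and in all 20 BT474R libraries, at 13.19 to 74.06 (median 58.71, adjusted p 4.18e-10). It is a promoter region of CPNE2, the gene next to NLRC5, and the other CPNE2 promoter region 103.0 kb from the NLRC5 start was open in 20 and 13 libraries. MX2 encodes a protein that restricts retroviruses. Its exonic region 4.9 kb from the start (chr21:41366665-41367176) was open in 10 and 20 libraries (adjusted p 0.00209), with medians of 0.95 and 50.25. An intronic region at 13.4 kb was open in 0 and 13 (adjusted p 8.86e-05), a call lost with equal top peaks (10 percentage points, adjusted p 0.962). A further intronic region at 34.9 kb, open in all 40 libraries, was higher by rank by 19.29 ± 0.66 (limma adjusted p 8.79e-19). In ISG20, an exonuclease gene, an intronic region 1.4 kb from the start was gained (0 and 17, adjusted p 3.19e-07) while an exonic one at 10.0 kb was lost (12 and 0, adjusted p 0.000274), next to a promoter open in all 40. In EIF2AK2, likewise, intronic regions at 7.2 kb (15 and 1, adjusted p 7.58e-05) and at 10.8 kb (0 and 8, adjusted p 0.0128) went in opposite directions. CMPK2 gained an intronic region at 9.1 kb (0 and 7, adjusted p 0.0291). All peaks at this region and at the EIF2AK2 region at 10.8 kb were in libraries of 0 and 1 h. With baseline and control libraries alone both calls were lost (Fisher's exact test, adjusted p 0.314 at each). The ISG20 call at 10.0 kb was lost there too (adjusted p 0.639). At a score of at least 400 and with equal top peaks, no consensus region was left at these regions of ISG20, EIF2AK2 and CMPK2. They could not be tested there.

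By rank, 20 of the 65 member regions tested were higher in BT474R and 37 lower, that is 30.8% and 56.9%, against 41.3% and 44.2% of all regions tested. Of these, 10 had a peak in under 10 libraries of one line, passed the filter through the other and had to differ. Of the 55 with a peak in at least 10 libraries of each line, 19 were higher and 28 lower (34.5% and 50.9%), against 43.9% and 40.1% of all regions so filtered. Without re-ranking, on the percentile within each list, the split was 15 higher and 45 lower. The shares of all regions under that setting are not given here, so this split is not read as a result about the members. Among the 55, the MX2 region at 4.9 kb differed by 43.46 ± 1.24 and the HERC6 promoter by the -37.56 ± 1.96 given above. The differences of the region 102.0 kb from NLRC5 (55.95 ± 1.07), the IFI35 promoter (-38.46 ± 1.14) and the CD274 region at 14.4 kb (-36.29 ± 0.96) are descriptions, since each passed the filter through 1 line.

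Whether the surroundings of a lost promoter were lost with it was read from the other consensus regions within 500 kb. Around OAS3, 3 of 41 were called lower in BT474R (7.32%), and around OASL 2 of 48 (4.17%). Around ISG15 it was 11 of 77 (14.3%), around IFI35 16 of 58 (27.6%), around HERC5 8 of 28 (28.6%), around IFIT5 4 of 14 (28.6%) and around CD274 3 of 9 (33.3%). The OAS3, OASL and ISG15 losses thus stood among neighbours called lower less often than the 18.4% of all regions, and those of IFI35, HERC5, IFIT5 and CD274 among neighbours called lower more often. The differences between these shares were not tested.

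The rest of the pathway was read from 52 further genes, of which 47 had a promoter region and 35 had one open in all 40 libraries. By presence, 5 were called lower in BT474R (10.6% of the 47) and 1 higher, against 8.75% and 1.13% of all protein-coding promoter regions. JAK2, a kinase of the interferon gamma receptor that lies on chromosome 9 within 500 kb of CD274, went from 20 to 0 libraries, with a BT474 median of 29.5 (adjusted p 4.18e-10). The other 4 were the interferon-stimulated genes DDX60 (20 and 0), PARP14 (20 and 1), SP100 (20 and 6) and TRIM14 (20 and 3), and LGALS3BP was gained (0 and 19). The transcription factor genes STAT2, IRF1, IRF2, IRF7 and IRF9 and the other Janus kinase genes JAK1 and TYK2 were open in all 40. The IRF2 promoter still went from a median of 98.8 to 55.9 and IRF1 from 85.5 to 66.2, while STAT2 stood at 95.9 and 96.0. By rank, 31 of the 45 tested were lower and 8 higher (limma), against 54.6% and 28.4% of all promoter regions tested, and the 31 hold promoters that passed the filter through BT474 alone, such as JAK2 and DDX60.

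For the ligands, the question was whether EGF or HRG opened or closed chromatin at these genes within a line. The EGF and HRG comparisons of a line used the same 6 control libraries, so their values are given side by side and are not independent. By presence, with the 3 times pooled, 6 against 6, and a call at an unadjusted p below 0.05 by the two-sided Fisher's exact test, 1 of the 95 regions was called for EGF in BT474 (1.19% of all regions were) and 1 for HRG in BT474 (1.64%). In BT474R none was called for EGF (0.388% of all regions) or for HRG (0.207%). No region of any gene passed after adjustment over the 71600. At a single time, 2 against 2, the exact test cannot go below p = 0.333.

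Both BT474 calls were the exonic MX2 region 4.9 kb from the start. No control or baseline BT474 library had a peak there. After EGF it had one in 5 of 6 libraries, at percentiles of 1.9 in one library at 1 h, 11.6 and 5.3 at 12 h, and 15.6 and 8.4 at 24 h. After HRG it also had one in 5 of 6, at 3.2 and 3.4 at 1 h, 24.9 in one library at 12 h, and 18.2 and 11.4 at 24 h. The Fisher's exact test gave p = 0.0152 for each ligand, with adjusted p of 1 for EGF and 0.926 for HRG. These peaks lay low in their lists, and with a minimum score of 400 or with lists of equal length neither call held. In BT474R the same region was open in all 20 libraries. There it was higher after EGF by 12.16 ± 2.38 percentile points, on ranks set over the regions tested (limma adjusted p 0.00209). On that scale the 6 EGF libraries were at 52.1 to 55.7 (median 54.4) and the 6 controls at 34.6 to 48.7 (median 42.25), without overlap. On percentiles within each list the groups overlapped, with EGF at 42.8 to 59.7 and controls at 14.5 to 58.0. On ranks over the regions tested, the HRG difference in BT474R was 9.51 (limma adjusted p 0.0375). That HRG call was lost in 16 of the 20 fits that left out 1 library.

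By rank, averaged over the 3 times, 6 of the 74 member regions tested were higher and 7 lower after EGF in BT474, 8.11% and 9.46%, against 12.3% and 6.78% of all regions tested. After HRG in BT474, 7 were higher and 8 lower (9.46% and 10.8%, against 14.3% and 11.8%), the 7 including MX2 at 4.9 kb, which passed the filter through its ligand libraries alone. After EGF in BT474R, 6 of 59 were higher and 5 lower (10.2% and 8.47%, against 12.9% and 11.2%), and after HRG 2 were higher and none lower (against 3.53% and 1.27%). Without re-ranking, the split was 11 higher and 3 lower for EGF in BT474 and 8 and 4 for HRG, and for EGF in BT474R 5 and 1. The matching shares of all regions are not given here, so these splits are not read as results about the members. At the single times, 2, 2 and 8 member regions were called for EGF in BT474 at 1, 12 and 24 h, against 5.10%, 6.0% and 15.0% of all regions tested. For HRG in BT474 it was 9, 7 and 10 (against 12.5%, 11.9% and 16.0%), and for EGF in BT474R 0, 4 and 6 (against 1.90%, 10.8% and 16.0%). For HRG in BT474R no member region was called by limma at any time (against 0%, 2.83% and 0.340%), with 2, 15 and 4 of the 59 at an unadjusted p below 0.05 (against 5.68%, 17.8% and 10.5% of all regions). For EGF in BT474R at 1 h there were 8 at that level (against 14.2%).

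USP18 held 2 intronic regions that moved in opposite directions after the ligands. Levels of single libraries from here on are ranks over the regions tested, unless percentiles within each list are named. At the region 7.2 kb from its start (chr22:18156939-18157770), the BT474 controls stood at 63.2 and 66.1 at 1 h, 61.8 and 60 at 12 h, and 56.4 and 56.4 at 24 h. The EGF libraries stood at 61.6 and 61.6, 68.6 and 69.6, and 70.8 and 67.5, and the HRG libraries at 63.1 and 66.2, 69.7 and 69.7, and 67.5 and 65.6. At 1 h the arms overlapped, and at 12 and 24 h each ligand library was above both controls of its time. In BT474R the 6 EGF libraries (68.8 to 79.4, median 76.45) were all above the 6 controls (57.8 to 68.3, median 66.1). On percentiles within each list these groups overlapped, at 69.9 to 81.0 and 53.4 to 74.0. The mean differences were 5.99 ± 1.21 for EGF and 6.33 ± 1.21 for HRG in BT474 and 10.21 ± 1.41 for EGF in BT474R (limma adjusted p 0.00382, 0.00176 and 0.000163). HRG in BT474R gave 5.29 ± 1.41 (adjusted p 0.0488), a call lost in 16 of the 20 fits that left out 1 library. In BT474 the controls at 24 h were themselves lower than those at 1 h.

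At the region 14.6 kb from the USP18 start (chr22:18163773-18165111) the change was downward and came first. In BT474 at 1 h the controls stood at 63.3 and 66.6, the EGF libraries at 44.3 and 44.9 and the HRG libraries at 53.0 and 45.4. By 12 h the EGF libraries were at 60.9 and 60.1 against controls of 62.3 and 61.1. In BT474R the EGF libraries stayed below the controls at each time, at 58.4 and 55.4, 61.1 and 57.3, and 53.3 and 53.5, with the 6 controls between 67.4 and 72.7. The mean difference was -8.37 ± 1.79 for EGF and -7.83 ± 1.79 for HRG in BT474 and -12.87 ± 2.02 for EGF in BT474R (limma adjusted p 0.00534, 0.00564 and 0.000441). For HRG in BT474R it was -5.08 ± 2.02 (adjusted p 0.176). Another region of USP18, 16.5 kb upstream in an intron of TUBA8, was lower in BT474, by -14.20 ± 3.43 after EGF and -16.10 ± 3.43 after HRG (adjusted p 0.0112 and 0.00363). The EGF call was lost without re-ranking (-10.78, adjusted p 0.0991).

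**Figure D4:**
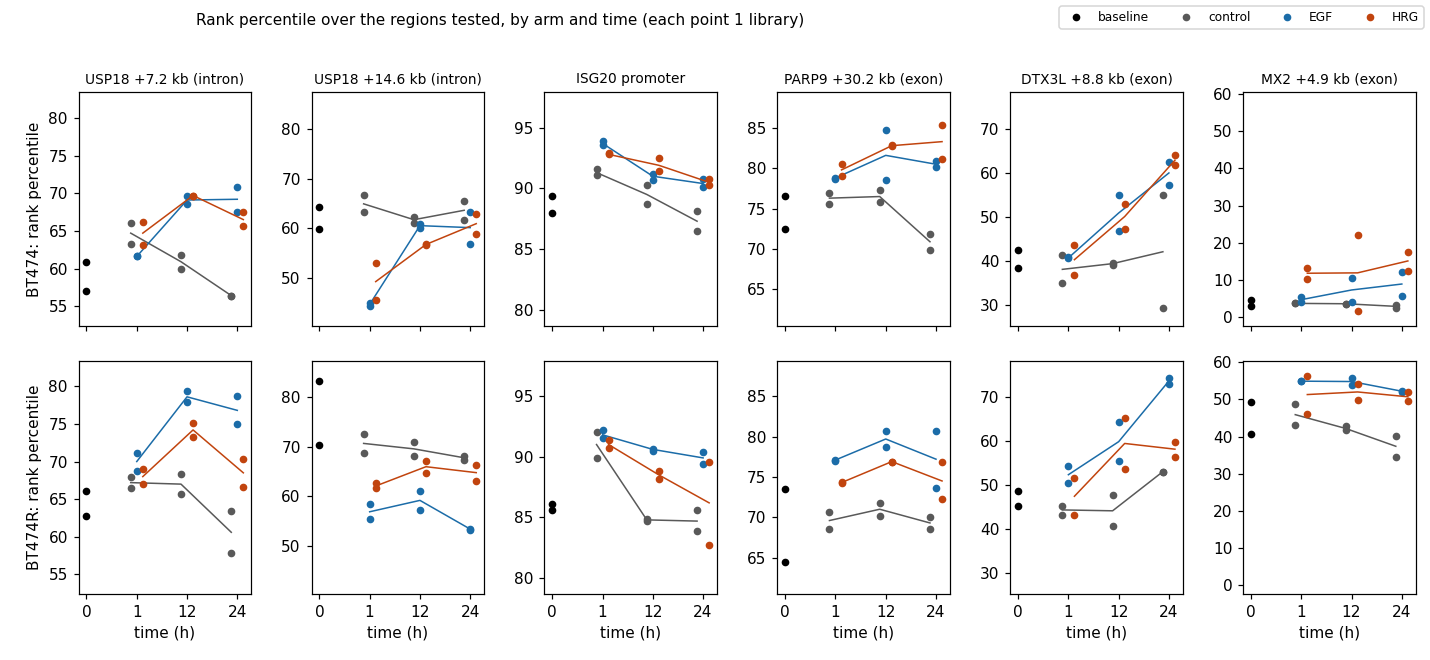
Rank percentile over the regions tested (vertical axes, which differ between columns) by time (horizontal axis, h, evenly spaced) at 6 member regions, BT474 above and BT474R below, each point 1 library and each line the mean of 2. At USP18 +7.2 kb and PARP9 +30.2 kb the EGF and HRG points lie above the controls at 12 and 24 h, at USP18 +14.6 kb they lie below them at 1 h, and the MX2 points below about 5 in BT474 are mostly libraries without a peak.

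PARP9 and its partner DTX3L each held an exonic region that was higher after the ligands. At PARP9, 30.2 kb from the start (chr3:122533654-122534541), the BT474 controls spanned 69.9 to 77.3 (median 75.7), the EGF libraries 78.5 to 84.8 (median 79.5) and the HRG libraries 79.1 to 85.4 (median 81.95). In BT474R the controls spanned 68.5 to 71.8 and the EGF libraries 73.6 to 80.7. Neither ligand overlapped the controls in either line, with HRG in BT474R at 72.3 to 76.9. On percentiles within each list, EGF (74.4 to 82.9) and HRG (75.2 to 79.2) in BT474R did overlap the controls (59.7 to 76.2). The differences were 5.73 ± 1.12 for EGF and 7.37 ± 1.12 for HRG in BT474 and 8.03 ± 1.61 for EGF in BT474R (limma adjusted p 0.00301, 0.000316 and 0.00247), and 5.32 ± 1.61 for HRG in BT474R (adjusted p 0.0804). At DTX3L, 8.8 kb from the start (chr3:122572819-122573463), EGF in BT474R gave 14.80 ± 2.57 (adjusted p 0.000904), with both 24 h EGF libraries at 73.1 and 74.3 against controls of 53.1 and 53.0. The DTX3L difference for HRG in BT474 was 11.19 ± 3.59 (adjusted p 0.0348, lost in 8 of the 20 fits without 1 library) and for EGF in BT474 10.64 ± 3.59 (adjusted p 0.0540).

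The ISG20 promoter was the member promoter that rose after EGF in both lines and after HRG in BT474, by small amounts from an already high level. The differences were 2.32 ± 0.39 for EGF and 2.38 ± 0.39 for HRG in BT474 and 3.94 ± 0.89 for EGF in BT474R (limma adjusted p 0.00112, 0.000594 and 0.00537). It was not called for HRG in BT474R, where the differences were 0.05, 3.72 and 1.42 at 1, 12 and 24 h. The BT474 controls spanned 86.5 to 91.6, the EGF libraries 90.1 to 93.9 and the HRG libraries 90.3 to 92.9, so the ranges overlapped when the 3 times were pooled. The EIF2AK2 promoter differed after EGF in BT474 by -4.91 percentile points (limma adjusted p 0.0162). That call was lost without EGF-BT474 1 h replicate 1 and without re-ranking (-2.95, adjusted p 0.0851). Also called lower after EGF in BT474 were the promoters of HERC5 (-10.1, adjusted p 0.0386) and IFIT5 (-18.22, adjusted p 0.0202). The HERC5 call was lost in 10 of the 20 fits without 1 library, and the IFIT5 call in 3. CMPK2, a mitochondrial nucleotide kinase gene, had an intronic region 9.9 kb from its start that was higher after HRG in BT474 (12.61 ± 2.81, adjusted p 0.0049) and after EGF in BT474R (12.13 ± 3.04, adjusted p 0.0101). The BT474R call was lost without re-ranking (10.8, limma adjusted p 0.071). Both BT474R control libraries at 12 h and control replicate 1 at 24 h had no peak there. RSAD2, the gene of the antiviral enzyme viperin next to CMPK2, had an exonic region 5.9 kb from its start that differed after HRG in BT474 by -11.21 ± 2.44 (adjusted p 0.00416), with the HRG libraries at 40 to 55.9 and the controls at 59.4 to 63.5. The region 16.6 kb upstream of IFI35, in an intron of RUNDC1, was higher after HRG in BT474 by 15.35 ± 3.21 (adjusted p 0.0032), with the HRG libraries at 42.2 to 46.1 and the controls at 14.8 to 38.3.

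Of the 9 member regions called higher in at least 1 ligand comparison, none carried the ISRE core apart from the ISG20 promoter, and 5 carried TGANTCA, the sequence that AP-1 factors bind, within 100 bp of the summit. By comparison it was 3 of 6 for EGF and 5 of 7 for HRG in BT474, and 4 of 6 for EGF and 2 of 2 for HRG in BT474R. It was found in none of the member regions called lower. The same split ran through all regions tested, where TGANTCA was found in 51.1%, 52.4%, 54.8% and 58.7% of those called higher in these 4 comparisons, in 2.89%, 3.43%, 3.92% and 3.17% of those called lower, and in 14.7% of those tested in either line. The 5 windows are shown because they are the ones behind these counts. They were picked out after their values were seen, and are written 5′ to 3′ on the strand of the nearest member from the GRCh38 genome, with the match in capitals.
USP18 +7.2 kb (chr22:18157426-18157454, plus strand): ctagagctctaTGAGTCAgtctccccaaa
PARP9 +30.2 kb (chr3:122534030-122534058, minus strand): caattcagacaTGACTCAtaatgtgacct
DTX3L +8.8 kb (chr3:122573165-122573193, plus strand): ggaactaagagTGAGTCActcccatgaga
MX2 +4.9 kb (chr21:41366862-41366890, plus strand): ctctccagctgTGACTCActgttgacatg
IFI35 -16.6 kb (chr17:42990112-42990140, plus strand): ccataaaatgaTGATTCAtggttcattca
All 5 lay in introns or exons and none in a promoter of a member, and the match was 8 to 30 bp from the summit. A match of 7 letters is a description of the window and does not show which factor was bound.

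Whether a ligand effect differed between the lines was tested as the difference of the 2 effects in 1 fit over all 40 libraries, an alternative added after the data were seen. For EGF, 3 of the 65 member regions passed, 4.62% against 5.83% of all regions tested. They were the intronic NLRC5 region at 79.5 kb (-8.47 ± 2.30, BT474R effect minus BT474 effect, adjusted p 0.0285), the intronic MX2 region at 34.9 kb (-6.22 ± 1.70, adjusted p 0.0294) and the region 52.2 kb from the MX1 start in an intron of TMPRSS2 (-6.23 ± 1.82, adjusted p 0.0429). For HRG, limma called none of the 65, against 5.56% of all regions tested, and 4 were at an unadjusted p below 0.05, against 16.9%. The NLRC5 region had a peak in 1 of 20 BT474R libraries and passed the filter through BT474, so its value restates the BT474 effect and is no test of a difference between the lines.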

How the data were processed

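Accessibility was measured by ATAC-seq in 40 libraries of BT474 and BT474R cells. Per the labels and the study's methods, the authors trimmed reads with Trim Galore 0.6.6, checked them with FastQC, mapped them to GRCh38 with BBMap and called peaks in each library with Genrich. Per the study's methods, Genrich also dropped reads of the mitochondrial genome and of regions on the ENCODE black list. Not given in the sources used here were Genrich's other options, and with them any shift to the transposase cut sites and the handling of reads that map to several places. Each deposited peak carries a score, by the authors an area under the curve of significance that depends on the depth of its library, and the lowest score in the lists was 200. Here scores were compared only inside a library.

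Chromosomes 1 to 22 and X were used, with genes from GENCODE release 44. Peaks overlapping by at least 1 bp were merged, and regions found in at least 2 lists were kept. The member genes and every list were chosen with earlier results of these data known. Groups were taken from the sample labels.

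Presence was compared with a two-sided Fisher's exact test for every region, on 6 against 6 libraries for a ligand and 20 against 20 for the lines. Ranks were set over regions with a peak in at least 10 of the 20 libraries of a line, or 20 of the 40 for the lines, and compared with limma 3.58.1 (R 4.3.3) with the groups as means. Adjusted p-values are Benjamini-Hochberg values over all regions tested. The study's own count model needs read counts and was not repeated here. The scripts were tested on simulated data in which 200 regions were changed.

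Regions were named by rule, as promoters lacking a peak in at least 1 library (up to 8, by the difference between the lines), called regions (up to 6 per comparison, by the smallest p) and promoters without any peak. Others were named where a member's role or a neighbouring region called for it, after their values were seen. Not every gene of the pathway list is reported by name. Motifs were searched on both strands within 100 bp of the summit.

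The alternatives were a minimum score of 400, lists cut to one length, regions found in at least 4 lists, 50% coverage, a window of 5 kb, strata by time, a replicate block, baseline and control libraries alone, regions with a peak in every library, percentiles without re-ranking, log2 scores with quantile normalization and each library left out in turn. Leaving out the 12 h libraries or promoters of other genes, any transcript start for promoters, a peak in at least 10 libraries of each line for the line ranks, and the difference of ligand effects between the lines were added after the data were seen. The labels do not say that replicate numbers pair the libraries, and the main fits did not pair them. Among pairs of groups, the correlation of same-numbered deviations spanned -0.237 to 0.617 (BT474) and -0.415 to 0.483 (BT474R). Fisher tests used scipy 1.17.1 in Python 3.11.15, with pandas 2.3.3, numpy 2.4.6 and matplotlib 3.10.9.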

Additional observations from a re-analysis of the deposited data

Results flagged for a closer look

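The EGF effect differed between the lines at 3 member regions, by the test of the difference itself over 40 libraries (limma). These were 4.62% of the 65 member regions tested, against 5.83% of all regions. Each value is the BT474R effect minus the BT474 effect in percentile points.

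At the intronic NLRC5 region 79.5 kb from the start the difference was -8.47. In BT474 the EGF libraries stood at 23.8 to 35.0 and the controls at 8.2 to 29.3, and in BT474R 1 of 20 libraries had a peak. The region passed the filter through BT474, so the value restates the BT474 effect.

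At the intronic MX2 region 34.9 kb from the start it was -6.22. In BT474R the EGF effect was -3.65 ± 1.01 (adjusted p 0.0174, lost without control-BT474R 1 h replicate 1), with EGF libraries at 72.3 to 80 and controls at 76.7 to 81.2. In BT474 it was 2.62 ± 1.43 (adjusted p 0.213), with EGF libraries at 55.9 to 66.6 and controls at 58.0 to 63.5.

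At the region 52.2 kb from the MX1 start, in an intron of TMPRSS2, the difference was -6.23. The EGF effect was 3.54 ± 0.90 in BT474 (adjusted p 0.015) and -2.66 ± 1.55 in BT474R (adjusted p 0.247). At 1, 12 and 24 h it was -3.98, 4.04 and 10.57 in BT474 and -9.61, 3.15 and -1.51 in BT474R, so the means average effects of both signs. In both lines the controls ran from high values at 1 h (82.4 and 84.5 in BT474, 87.5 and 86.9 in BT474R) to low values at 24 h (73.1 and 68.8, and 76.8 and 75.1).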

How the results depend on the processing

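The number of member regions called between the lines by presence (28) was 18 in a 5 kb window, 13 with baseline and control libraries alone, 17 at a score of at least 400 and 15 with equal top peaks. For EGF in BT474 (1) it was 0 at a score of at least 400 and 0 with equal top peaks, for HRG in BT474 (1) it was 0 at a score of at least 400, and for HRG in BT474R (0) it was 1 with 50% coverage. By rank, the line count (57) was 36 in a 5 kb window, with a peak in every library, and on log2 scores. EGF in BT474 (13) gave 8 in a 5 kb window, EGF in BT474R (11) gave 6 without re-ranking, and HRG in BT474R (2) gave 7 without re-ranking and 1 with a peak in every library, on log2 scores or under the replicate block. The smaller windows and stricter filters tested fewer regions, and the cause of the other changes was not tested.

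Under the replicate block the counts by rank were 57 for the lines, 14 and 17 for EGF and HRG in BT474 and 11 for EGF in BT474R, and by presence 28 for the lines. The correlation of same-numbered deviations between groups had a median of 0.012 in BT474 and -0.0021 in BT474R. It was over 0.1 in 5 of 45 pairs of groups in BT474 and 11 of 45 in BT474R. This does not settle whether the numbers pair the libraries.

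With 1 library left out, the counts by presence ranged from 28 to 31 for the lines, 1 to 1 for EGF and 1 to 2 for HRG in BT474, and 0 to 0 for both in BT474R. By rank they ranged from 55 to 57 for the lines, 10 to 20 for EGF and 8 to 21 for HRG in BT474, and 8 to 14 for EGF and 0 to 4 for HRG in BT474R. The EGF count in BT474 was 20 without EGF-BT474 12 h replicate 1, and the HRG count was 8 without HRG-BT474 12 h replicate 2.

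Of 449 alternative values for the 87 single regions named, 386 kept their direction and call, 56 lost the call, 6 gained one and 1 changed sign, the OAS1 promoter between the lines, from 20 to -12.5 percentage points with baseline and control libraries alone. Of 2604 values with 1 library left out, 149 lost the call. All of these were ligand calls by rank, and no call between the lines was lost. A region not left or not tested under an alternative gave no value for it and is not in these counts. Peak lists hold no counts, so depth limits are unknown, and weak regions near the score of 200 can be lost from a short list.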
